A study of Mus musculus with 9 samples.

Results

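Alveolar fibroblasts are the collagen-producing cells of the gas-exchange walls of the lung, and they are known for supplying matrix, growth factors, and retinoid and lipid metabolism to the neighbouring epithelium and capillaries. They are usually told apart from the adventitial fibroblasts of the vessel and airway cuffs by a set of identity genes, and in injured lung such identity genes are followed as a measure of how far a fibroblast has left its resting state. The genes described here are 8 such identity genes, *Npnt*, *Scube2*, *Mamdc2*, *Gsn*, *Limch1*, *Ces1d*, *Inmt*, and *Slc7a10*, chosen by name out of the 43346 genes of the deposited table, and all 8 are in it. *Npnt* (nephronectin) is a matrix ligand of the integrin made of the Itga8 and Itgb1 chains, *Scube2* encodes a secreted protein that helps release lipid-bearing Hedgehog ligands, and *Mamdc2* encodes a secreted MAM domain protein. *Gsn* (gelsolin) severs and caps actin filaments, and *Limch1* encodes an actin-associated protein that activates nonmuscle myosin II. *Ces1d* is a carboxylesterase that hydrolyses stored triglyceride, *Inmt* is an N-methyltransferase of indoleamines, and *Slc7a10* is a transporter of small neutral amino acids.

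RNA-Seq was available for 9 libraries, of which 4 came from aged sham and 5 from aged bleo mice. All mice carried the Col1a1-GFP reporter, in which a collagen I promoter drives GFP, and were aged (18 months in the treatment description, 72 weeks in the age label). Aged sham mice received saline and aged bleo mice received bleomycin once into the trachea, and lungs were taken 30 days later. Cells positive for GFP and negative for CD45, CD31, and EpCAM were sorted, so the libraries hold the fibroblasts in which the reporter was active, of every lung compartment, and not alveolar fibroblasts alone. The question that the comparison of aged bleo with aged sham addresses is how fibroblasts of aged lungs differ 30 days after injury.

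Counts summed to 49921946 to 62370512 in aged sham and to 53833507 to 68260600 in aged bleo, and the smallest count of any of the 8 genes in a library was 303. Levels are given in CPM, the counts scaled to TMM-corrected library size, and differences as log2 fold changes of aged bleo against aged sham with the SE of edgeR's quasi-likelihood fit. FDR is the Benjamini-Hochberg adjusted p-value over the 16877 genes whose counts averaged 25 or more, and a gene was called at an FDR under 0.10 with a fold change over 1.5. The fibroblast markers *Col1a1* (4154 ± 407 CPM in aged sham, SD, n = 4) and *Pdgfra* (912 ± 94.0 CPM) were high. Of 6 fibroblast markers, 3 rose in aged bleo, 1 fell, and 2 were not called, *Pdgfra* among these (FDR 0.112). *Col1a1*, after which the reporter is named, rose to 20853 ± 4970 CPM (log2 fold change 2.33, FDR 0.000176). The marker that fell was *Dcn* (8122 ± 558 to 2795 ± 1249 CPM, -1.54, FDR 0.0067). *Epcam* lay between 0.41 and 1.2 CPM in every library. *Pecam1* (CD31) lay between 2.44 and 6.70 CPM, but *Ptprc* (CD45) reached 183 CPM in aged bleo 4 and 169 CPM in aged sham 4, against 30.6 to 92.4 CPM in the other 7 libraries. The adventitial fibroblast genes *Pi16* (2126 ± 154 CPM in aged sham) and *Dpt* (2620.2 ± 307 CPM) were abundant besides.

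The 8 genes did not change as 1 set. *Scube2* and *Npnt* rose in aged bleo, *Gsn*, *Inmt*, and *Ces1d* fell, and *Limch1*, *Mamdc2*, and *Slc7a10* did not pass the test. Thus 3 of 8 were lower, against 11.5% of all tested genes, and 2 of 8 were higher, against 12.3% of all tested genes, or 23.8% in both directions. Their median log2 fold change was -0.25, and that of all tested genes was 0.01. The groups overlapped for 6 of the 8 genes, while *Gsn* and *Inmt* were lower in every aged bleo library than in every aged sham library, as were 16.1% of the tested genes (32.2% had no overlap in one direction or the other). In bulk libraries, fewer cells of a type and less RNA per cell cannot be told apart.

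**Figure D1:**
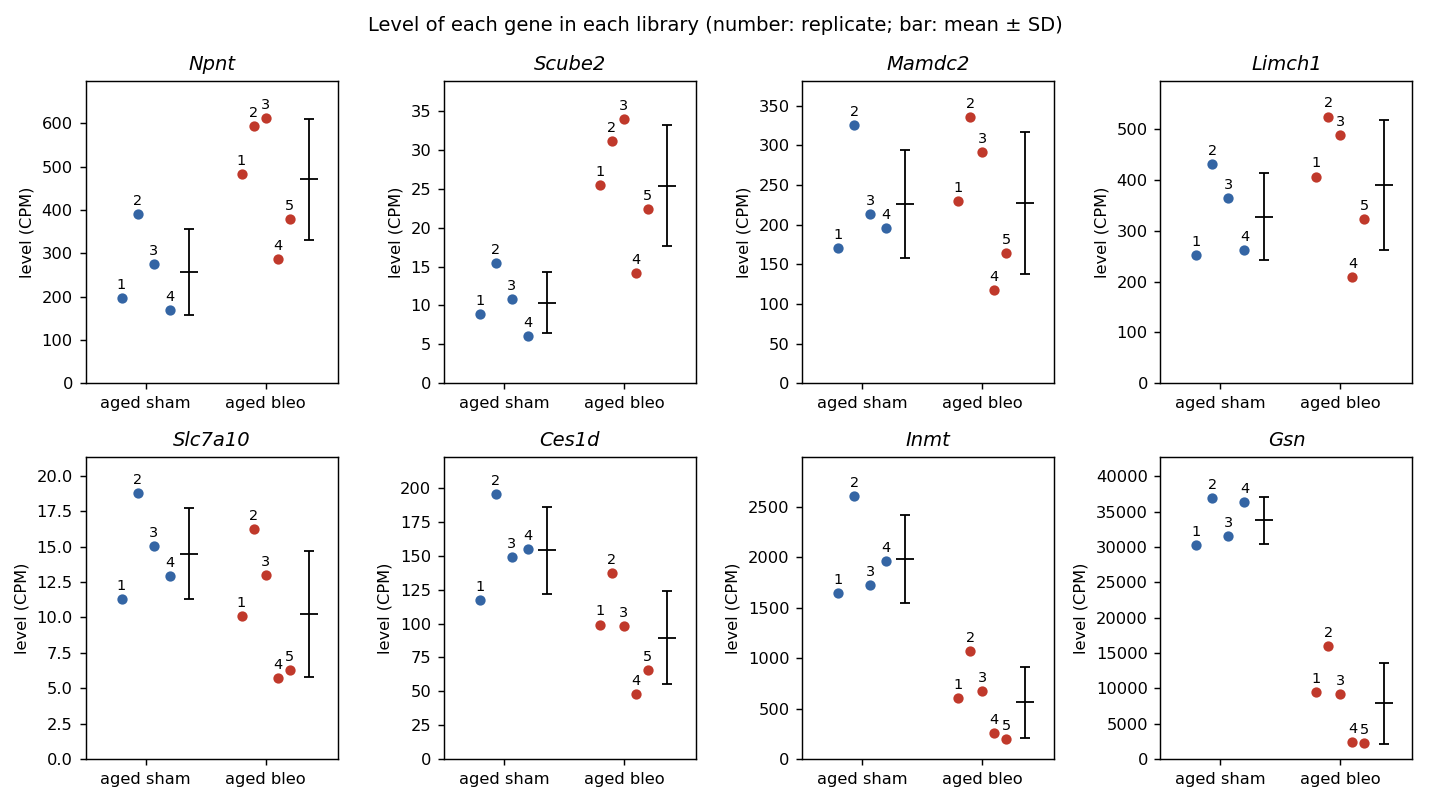
Level of each of the 8 genes in CPM (vertical axes from 0, 1 scale per gene) in the 4 aged sham (blue) and 5 aged bleo (red) libraries, numbered by replicate, with the mean ± SD of each group as black bars. *Gsn* and *Inmt* separate downward without overlap, *Npnt* and *Scube2* lie higher in aged bleo with overlap, and aged bleo 4 and 5 are the lowest aged bleo libraries in every panel.

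The promoters of the 2 genes that rose and of the 2 that fell the most are shown to let the letters of oppositely moving genes be compared. Each is 250 bases before to 50 bases after a RefSeq start (GRCm38.p6), written 5′ to 3′ on the strand of the gene, with matches to the motifs searched in capitals. RefSeq windows were found for 6 of the 8 genes, all but *Ces1d* and *Mamdc2*. The window of *Npnt* is chr3:132950242-132950541 on the minus strand, that of *Scube2* is chr7:109865630-109865929 on the minus strand, that of *Inmt* is chr6:55174941-55175240 on the minus strand, and that of *Gsn* is chr2:35256109-35256408 on the plus strand, the first of 3 listed starts of *Gsn*, which lies before the start of that gene in the deposited table.

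Npnt: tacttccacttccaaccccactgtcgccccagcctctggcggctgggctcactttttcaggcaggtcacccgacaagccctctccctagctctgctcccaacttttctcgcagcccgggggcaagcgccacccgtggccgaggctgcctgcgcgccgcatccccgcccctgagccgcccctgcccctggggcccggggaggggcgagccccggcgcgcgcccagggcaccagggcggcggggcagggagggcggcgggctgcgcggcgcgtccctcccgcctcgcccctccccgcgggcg
Scube2: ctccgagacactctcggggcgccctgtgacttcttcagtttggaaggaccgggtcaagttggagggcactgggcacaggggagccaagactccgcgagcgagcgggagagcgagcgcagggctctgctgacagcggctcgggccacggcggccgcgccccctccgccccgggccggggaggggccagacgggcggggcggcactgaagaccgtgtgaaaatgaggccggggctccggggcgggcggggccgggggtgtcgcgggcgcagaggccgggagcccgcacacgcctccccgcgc
Inmt: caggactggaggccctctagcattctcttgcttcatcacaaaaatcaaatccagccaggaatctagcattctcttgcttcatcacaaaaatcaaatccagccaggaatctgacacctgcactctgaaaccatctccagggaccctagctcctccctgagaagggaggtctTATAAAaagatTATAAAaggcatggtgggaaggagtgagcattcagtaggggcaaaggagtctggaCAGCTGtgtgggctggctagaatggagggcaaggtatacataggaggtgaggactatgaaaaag
Gsn: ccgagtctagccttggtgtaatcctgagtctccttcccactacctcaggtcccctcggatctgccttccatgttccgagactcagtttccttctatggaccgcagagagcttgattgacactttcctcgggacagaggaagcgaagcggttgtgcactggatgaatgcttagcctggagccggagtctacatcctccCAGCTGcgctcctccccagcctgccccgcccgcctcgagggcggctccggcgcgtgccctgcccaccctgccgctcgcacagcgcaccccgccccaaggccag

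The printed windows of both genes that rose were rich in G and C, with 76.7% G+C and 32 CpG dinucleotides in *Npnt* and 75.3% and 36 in *Scube2*. The median was 52.7% and 7 over 32851 windows of that length. Another *Npnt* window had 68% and 26. Such windows were not particular to genes that rose. The first window of *Limch1* had 72.7% and 35, and that of *Slc7a10* had 70.7% and 24, and neither gene was called. The later *Limch1* windows held less G+C. Whether G+C content goes with the direction of change was not tested. The *Inmt* window had 47.7% G+C and no CpG (0), and that of *Gsn* had 63.7% and 20. The motifs searched on both strands were CAGCTG, an E box that the fibroblast factor TCF21 binds, then TGTTTAC of forkhead factors, then TGAGTCA of the AP-1 family, then GGAATG of TEAD factors, then TGGAAA of NFAT factors, then AGAACA of the glucocorticoid receptor, and last TATAAA, the TATA box, and no match overlapped that of another motif. CAGCTG stood 14 bases before the start of *Inmt* and 53 bases before that of *Gsn*, and 16.3% of all windows hold it. TATAAA stood 80 and 69 bases before the start of *Inmt*, and 13.6% of all windows hold it. Of the other 2 windows of *Gsn*, chr2:35266494-35266793 (54.7% G+C, 2 CpG) held CAGCTG 216 bases before its start. The third, chr2:35282130-35282429 (58.7% G+C, 16 CpG), is the only one inside the span of *Gsn* in the deposited table, and it held no CAGCTG but TGGAAA 138 bases before its start. The printed *Npnt* and *Scube2* windows held none of these letters. The later windows of *Limch1* held the forkhead, NFAT, glucocorticoid receptor, and TATAAA letters. Of all windows, 3.65% hold the forkhead, 5.2% the AP-1, 14.7% the TEAD, 21.4% the NFAT, and 19% the glucocorticoid receptor letters. A match or its absence describes the letters of these windows and not the binding of a factor.

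Among the secreted and matrix genes, *Npnt* (ENSMUSG00000040998, chr3:132881745-132950291, minus strand) rose. Its levels were 197, 391, 274, and 168 CPM in aged sham 1 to 4, and 483, 593, 611, 286, and 379.8 CPM in aged bleo 1 to 5. Aged bleo 1, 2, and 3 exceeded every aged sham library, while aged bleo 4 and 5 lay under aged sham 2. The means were 258 ± 99.5 CPM (SD, n = 4) and 471 ± 139 CPM (n = 5), a 1.83-fold increase (log2 fold change 0.87 ± 0.30 SE, FDR 0.0469). The call was lost without aged sham 1 (0.76, FDR 0.116) and without aged sham 4 (0.71, FDR 0.115). Of the chains of the integrin that binds nephronectin, *Itgb1* rose from 773 ± 30.8 to 1393 ± 257 CPM (log2 fold change 0.85 ± 0.14, FDR 0.0026), whereas *Itga8* went from 577 ± 162 to 439.7 ± 163 CPM and did not pass (-0.39 ± 0.31, FDR 0.354).

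*Scube2* (ENSMUSG00000007279, chr7:109798676-109865679, minus strand) had the largest positive fold change of the 8 genes. Its levels were 8.92, 15.5, 10.9, and 6.11 CPM in aged sham 1 to 4, and 25.4, 31.1, 33.9, 14.1, and 22.4 CPM in aged bleo 1 to 5. All aged bleo libraries exceeded all aged sham libraries except that aged bleo 4 lay under aged sham 2. The mean rose from 10.3 ± 3.93 to 25.4 ± 7.77 CPM, or 2.46-fold (log2 fold change 1.30 ± 0.31, FDR 0.0121). Its paralog *Scube1* rose from 15.1 ± 2.70 to 248 ± 44.6 CPM (log2 fold change 4.03), and *Scube3* did not pass (113 ± 28.1 and 72.7 ± 38.1 CPM, FDR 0.253). Of the other Hedgehog pathway genes, the ligand gene *Ihh* (0.859 to 0.165 CPM, log2 fold change -2.37) and the ligand exporter *Disp1* (40.1 to 20.3 CPM, -0.98) fell, and none rose. The receptor gene *Ptch1* passed the FDR but not the fold (144 to 204 CPM, 0.50, FDR 0.0197), and *Gli1*, a target and effector of the pathway, did likewise with the other sign (127 to 95.8 CPM, -0.41, FDR 0.0968). *Hhip* (0.19) and *Smo* (0.18) did not pass, and *Shh* was below the count filter.

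*Mamdc2* (ENSMUSG00000033207, chr19:23302609-23448322, minus strand) had nearly equal means in both groups and did not pass the test. Its levels were 171, 325, 213, and 196 CPM in aged sham 1 to 4, and 229.6, 336, 292, 117, and 164 CPM in aged bleo 1 to 5. The aged bleo libraries thus ran from below the lowest to above the highest aged sham library. The means were 226 ± 68.1 and 228 ± 89.5 CPM (log2 fold change 0.01 ± 0.31, FDR 0.989). Its relative *Mamdc4* did not pass either (20.6 ± 1.94 and 23.3 ± 2.22 CPM, FDR 0.170).

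Of the 2 genes of the actin cytoskeleton, *Gsn* (ENSMUSG00000026879, chr2:35279663-35307892, plus strand) showed the largest fall of the 8 genes. It had the highest CPM of any gene in aged sham, with 30319, 36869, 31607, and 36426 CPM in replicates 1 to 4. Its levels in aged bleo 1 to 5 were 9503, 15919, 9240.0, 2394, and 2247 CPM. The aged sham libraries lay close together, and the aged bleo libraries fell into a higher trio and a pair, aged bleo 4 and 5, that held the lowest values. The mean went from 33805 ± 3329 to 7860.4 ± 5721 CPM, 4.30-fold lower (log2 fold change -2.10 ± 0.55, FDR 0.0179). In shares of all counts, *Gsn* took 3.01% to 3.67% of an aged sham library and 0.228% to 1.56% of an aged bleo library. Its log2 SD within aged bleo, 1.28, was larger than that of 98.1% of the tested genes, whereas its log2 SD within aged sham, 0.14, was larger than that of 48.6%. Of the other gelsolin family genes tested, *Scin* (13.5 ± 1.32 to 2.34 ± 1.39 CPM, log2 fold change -2.53) and *Avil* (6.00 ± 1.11 to 2.46 ± 0.95 CPM, -1.29) fell. *Flii* (-0.34, FDR 0.0198) stayed under the fold threshold, and *Svil* (-0.13) and *Capg* (0.02) did not pass.

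*Limch1* (ENSMUSG00000037736, chr5:66745835-67057159, plus strand) did not pass the test. Its levels were 253, 433, 365, and 262 CPM in aged sham 1 to 4, and 407, 525, 488, 209, and 324 CPM in aged bleo 1 to 5. Only aged bleo 2 and 3 exceeded the highest aged sham library, and aged bleo 4 lay below the lowest. The means were 328 ± 86.1 and 391 ± 128 CPM (log2 fold change 0.25 ± 0.27, FDR 0.503). *Lmo7*, a related gene, was at 5.33 ± 1.88 and 7.70 ± 1.78 CPM (FDR 0.164).

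Among the enzymes and transporters, *Inmt* (ENSMUSG00000003477, chr6:55170626-55175043, minus strand) fell without overlap between the groups. Its levels were 1644, 2605, 1725, and 1963 CPM in aged sham 1 to 4, and 602, 1067, 676, 252, and 202 CPM in aged bleo 1 to 5. As for *Gsn*, aged bleo 2 was the highest and aged bleo 4 and 5 were the lowest of the aged bleo libraries. The mean went from 1984 ± 436 to 559.8 ± 352 CPM, 3.54-fold lower (log2 fold change -1.83 ± 0.45, FDR 0.0141). The small-molecule methyltransferases *Nnmt* (12.8 and 14.5 CPM, FDR 0.436) and *Pnmt* (0.516 and 0.956 CPM, FDR 0.187) did not pass.

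*Ces1d* (ENSMUSG00000056973, chr8:93166068-93197838, minus strand) fell, but with overlap. Its levels were 117, 196, 149, and 155 CPM in aged sham 1 to 4, and 99.3, 137, 98.2, 47.9, and 65.4 CPM in aged bleo 1 to 5. Every aged bleo library except aged bleo 2 was below every aged sham library. The mean went from 154 ± 32.1 to 89.5 ± 34.4 CPM, 1.72-fold lower (log2 fold change -0.78 ± 0.28, FDR 0.0543). The call was lost without aged sham 2 (-0.65, FDR 0.142), aged sham 4 (-0.78, FDR 0.101), or aged bleo 5 (-0.69, FDR 0.114). Of the neighbouring *Ces1* genes, which are close copies of each other and whose reads may not be fully separated, only *Ces1g* passed the count filter, and it rose from 0.316 ± 0.15 to 1.13 ± 0.09 CPM (log2 fold change 1.84).

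*Slc7a10* (ENSMUSG00000030495, chr7:35186385-35204898, plus strand) did not pass the test. Its levels were 11.3, 18.8, 15.0, and 12.9 CPM in aged sham 1 to 4, and 10.1, 16.2, 13.0, 5.73, and 6.28 CPM in aged bleo 1 to 5. Aged bleo 4 and 5 lay well below the other 7 libraries, and aged bleo 2 lay above 3 of the 4 aged sham libraries. The means were 14.5 ± 3.21 and 10.3 ± 4.45 CPM (log2 fold change -0.50 ± 0.31, FDR 0.236). Without aged bleo 2 it was called lower (-0.73, FDR 0.0679). Its end overlaps that of *Lrp3* on the other strand, and the library kit does not mark strand, so that reads of the 2 genes may not be separated. *Lrp3* averaged 66.4 CPM without and 47.0 CPM after injury, a log2 fold change of -0.50 (FDR 0.115). The other amino acid transporters *Slc7a5* (19.6 ± 0.80 to 52.3 ± 19.5 CPM, log2 fold change 1.42) and *Slc7a7* (6.97 ± 2.06 to 13.4 ± 1.37 CPM, 0.94) rose. The heavy chain gene of these transporters, *Slc3a2* (0.27, FDR 0.0319), and *Slc7a6* (0.27, FDR 0.0333) stayed under the fold threshold. *Slc7a8* (0.60), *Slc7a11* (0.02), and *Srr* (-0.05), which makes the D-serine that *Slc7a10* carries, did not pass.

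Between genes, levels were compared in FPKM, the deposited values per length. In aged sham the order was *Gsn* (4761 ± 463 FPKM, rank 2 of 43346 genes), *Inmt* (520.5 ± 119, rank 19), *Mamdc2* (28.5 ± 8.93), *Ces1d* (27.3 ± 5.91), *Npnt* (21.6 ± 8.63), *Limch1* (18.6 ± 5.14), *Slc7a10* (2.47 ± 0.58), and *Scube2* (1.05 ± 0.41). From *Mamdc2* to *Limch1*, neighbours in this order differed by less than their SDs. In aged bleo, *Gsn* (1121 ± 801 FPKM) was at rank 8 and *Inmt* (149 ± 90.9) at rank 92, still first and second among the 8. *Npnt* (40.0 ± 10.8 FPKM) then stood before *Mamdc2* (29.1 ± 10.8), *Limch1* (22.5 ± 6.85), and *Ces1d* (16.1 ± 5.89), having moved from rank 938 to rank 434 among all genes. *Scube2* (2.61 ± 0.74 FPKM) passed *Slc7a10* (1.78 ± 0.73), and these last 2 differed by only slightly more than their SDs.

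Although the fold changes had different signs, the 8 genes shared the libraries in which they were highest or lowest within a group. Aged sham 2 was the highest aged sham library for 8 of 8 genes, against 26.9% of the tested genes. Aged bleo 4 and 5 were the lowest pair of aged bleo libraries for 8 of 8, against 28.7% of the tested genes. Aged bleo 2 was the highest for 6 genes (27.6% of the tested genes) and aged bleo 3 for the other 2, *Npnt* and *Scube2* (11.7%). Genes within a library are not independent, so these counts describe 9 libraries and carry no test. The low pair was not particular to the 8 genes. The summed level of 12 adventitial fibroblast genes was 2491 and 2948 CPM in aged bleo 4 and 5, against 6049 to 8042 CPM in aged bleo 1 to 3. For 5 peribronchial fibroblast genes it was 174 and 288 CPM, against 345 to 404 CPM. The sum of 15 fibrotic state genes was instead lowest in aged bleo 2 and highest in aged bleo 5.

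**Figure D2:**
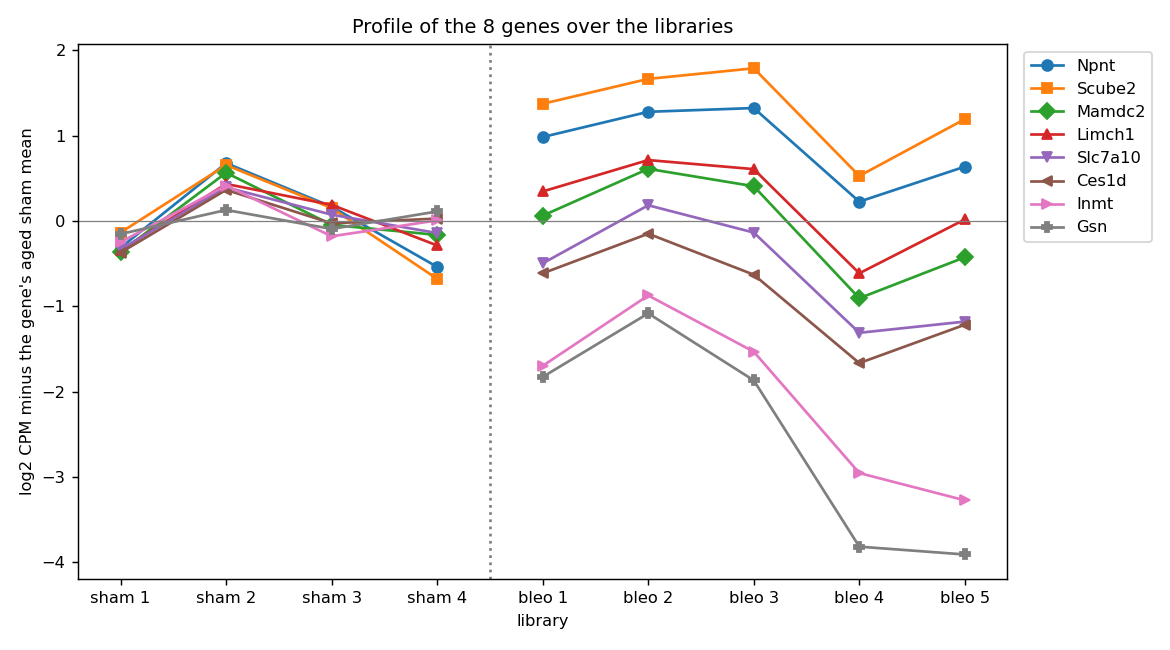
Log2 CPM of each of the 8 genes minus its aged sham mean (vertical axis) in each library (horizontal axis), with lines only joining the points of a gene and a dotted line between the groups. All 8 lines have aged bleo 4 and 5 below aged bleo 1 to 3, but by unequal distances, and the points spread from 1.79 for *Scube2* in aged bleo 3 to -3.91 for *Gsn* in aged bleo 5.

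The proportions among the 8 genes in a library therefore separated the groups. For 25 of the 28 pairs, the ratio of the CPM of both genes did not overlap between aged sham and aged bleo, against 34.2% of all pairs of tested genes. The ratio of *Gsn* to *Npnt* was 94.3 to 216 in aged sham and 5.92 to 26.8 in aged bleo, and that of *Gsn* to *Scube2* was 2386 to 5961 and 100.1 to 511. Smaller shifts were as clean, since *Npnt* to *Limch1* was 0.641 to 0.904 in aged sham and 1.13 to 1.37 in aged bleo. The pairs that overlapped were *Gsn* with *Inmt*, *Ces1d* with *Slc7a10*, and *Limch1* with *Mamdc2*. Ratios of the same genes share their values, and the pairs are not independent.

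The genes with the profile nearest to the mean of the 8, by the root mean square difference of log2 CPM over the 9 libraries, were *Arvcf* (0.17), *Gria1* (0.17), *Slc1a3* (0.18), *Ablim3* (0.18), and *Tmem204* (0.20) among 10006 genes, and none of these 5 passed the test. The genes nearest to single members were chosen after their values were seen. *Cacna1d* (0.12) and *Col13a1* (0.17) were nearest to *Npnt*, *Ch25h* (0.18) to *Scube2*, *Egflam* (0.15) to *Mamdc2*, *Lrp4* (0.17) to *Limch1*, and *Ablim3* (0.13) to *Slc7a10*. *Lrp3*, whose end overlaps that of *Slc7a10*, came 5th for *Slc7a10* (0.18). How far shared reads enter the *Slc7a10* profile was not tested. *Pcolce2* (0.15) and *Clec3b* (0.18) were nearest to *Inmt*, and *Wnt2b* (0.18) to *Gsn*. Among the 10013 genes ranked for each member, *Npnt* came 11th for *Scube2*, *Limch1* 13th for *Mamdc2*, *Ces1d* 29th for *Slc7a10*, and *Inmt* 37th for *Gsn*. Other members were among the least alike. *Gsn* was at rank 9983 for *Scube2* and 9972 for *Npnt*, and *Inmt* was at rank 9904 for *Npnt*.

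Other genes of alveolar fibroblasts were also split by direction. Of 19 tested, 5 rose, 5 fell, and 9 did not pass, and their median log2 fold change was 0.05. Those that rose were *Bmper* (23.6 ± 1.46 to 143 ± 42.8 CPM, log2 fold change 2.60), a BMP-binding protein gene, the chemokine gene *Cxcl14* (35.1 ± 12.4 to 212 ± 30.5 CPM, 2.59), *Slc27a6* (2.03), *Spon1* (1.99), and *Col13a1* (0.96). Those that fell were the retinoid enzyme gene *Adh1* (197 ± 23.1 to 83.7 ± 32.4 CPM, -1.23), *Scn7a* (451 ± 19.3 to 204 ± 101 CPM, -1.14), *Fmo2* (-1.12), the lineage factor gene *Tcf21* (106 ± 7.75 to 49.6 ± 18.8 CPM, -1.10), and *Figf* (-1.06). *Pdgfra*, *Fgf10*, *Lpl*, and *Wnt2* were among those that did not pass.

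The adventitial genes were not split. Of 12, 11 fell, none rose, and *Mfap5* did not pass, with a median log2 fold change of -1.47 and the largest falls in *Dpp4* (117 ± 7.68 to 20.3 ± 11.3 CPM, -2.53) and *Ccl11* (248 ± 21.5 to 71.8 ± 43.6 CPM, -1.79). The falls of *Gsn* (-2.10) and *Inmt* (-1.83) lay between these, so falls of that size were not particular to alveolar fibroblast genes. None of the 5 peribronchial fibroblast genes passed, with *Lgr5* (0.37) and *Hhip* (0.19) at one end and *Lgr6* (-0.52) and *Aspn* (-0.37) at the other. Of 15 genes of the fibrotic fibroblast state, 12 rose and none fell, with a median log2 fold change of 2.47. *Lrrc15* went from 0.084 to 37.8 CPM (8.75) and *Spp1* from 8.77 to 2145 CPM (7.93). Of the contractile genes, *Acta2* passed the FDR but narrowly missed the fold (-0.58, FDR 0.0629), and *Tagln* (-0.39, FDR 0.180) did not pass. *Acta2* was called lower under some of the alternatives given below. The study named genes of this list from these samples, *Col1a1*, *Col3a1*, *Postn*, *Tnc*, and *Cthrc1* among them, so the direction of the list is not independent evidence.

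**Figure D3:**
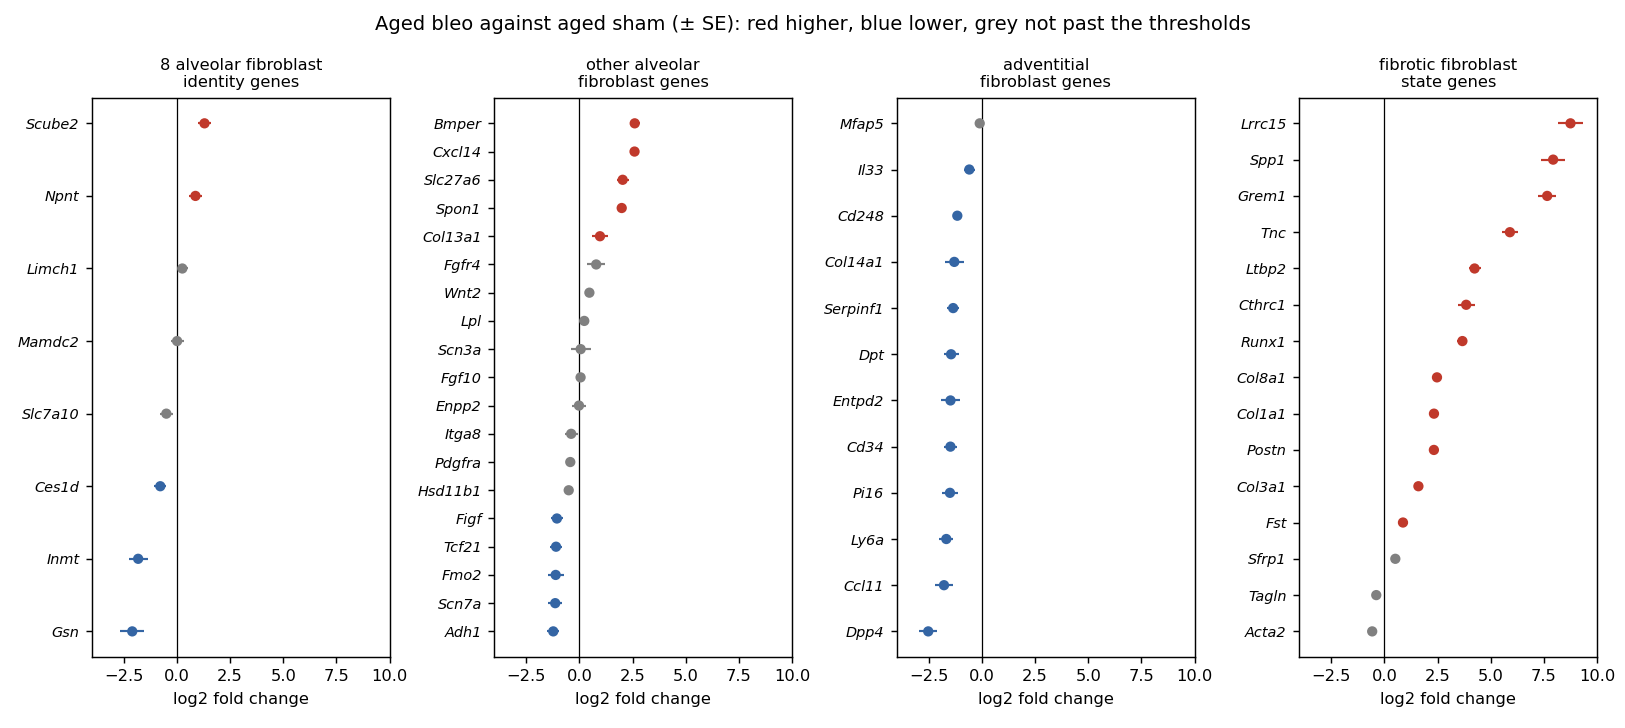
Log2 fold change of aged bleo against aged sham with its SE as a bar (horizontal axis) for the 8 identity genes, 19 other alveolar, 12 adventitial, and 15 fibrotic state genes, sorted within each panel, red where higher, blue where lower, and grey where the thresholds were not passed. The 2 alveolar panels hold red and blue points, the adventitial panel holds 11 blue points and no red one, and the fibrotic panel holds 12 red points and no blue one.

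Markers of other cell types moved with some of the libraries above. The summed level of 6 leukocyte genes was 94.3 to 351 CPM without injury and 97.9 to 545 CPM after it, highest in aged sham 4 and aged bleo 4, and that of 8 macrophage genes was 166 to 293 CPM and 511 to 1633 CPM, with 5 of 8 higher. Aged bleo 5, which was as low as aged bleo 4 in *Gsn*, had 144 and 918 CPM of these sums. *Lyz2* rose from 117 ± 33.6 to 628 ± 303 CPM (log2 fold change 2.42) and *Chil3* from 27.2 ± 7.74 to 93.9 ± 49.0 CPM (1.79), while of the leukocyte genes only *Laptm5* rose (1.1, FDR 0.0931) and *Ptprc* had -0.42 (FDR 0.643). Endothelial sums (6 genes, *Kdr* and *Egfl7* higher) were 11.0 to 15.6 and 12.3 to 19.8 CPM, epithelial sums (7 genes, *Ager* lower at -3.32) 12.4 to 96.7 and 14.7 to 48.9 CPM, and mesothelial sums (5 genes, none called) 22.6 to 71.4 and 27.6 to 106 CPM. Of 9 pericyte and smooth muscle genes, 3 rose and 3 fell. Among those that rose were *Trpc6* (0.554 to 9.56 CPM, 4.09) and *Higd1b* (0.348 to 2.23 CPM, 2.67), both at low levels. Among those that fell were *Myh11* (1377 to 617 CPM, -1.16) and *Cnn1* (180 to 92.1 CPM, -0.96). The sum of the 9 genes was 1437 to 2797 CPM without injury and 844 to 1828 CPM after it. No marker was at 0 in every library. Aged bleo 4 and aged sham 4 were left out together, a choice made after seeing the data. The log2 fold changes were then -1.86 for *Gsn*, -1.67 for *Inmt*, -0.64 for *Ces1d*, 0.83 for *Npnt*, and 1.24 for *Scube2*, and all 5 remained called. In the libraries kept, the macrophage sum was still 511 to 918 CPM in aged bleo, against 166 to 222 CPM in aged sham. The part of the macrophage and smooth muscle cells in these results was not tested.

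The names of the libraries end in a number, whose meaning is not given in the sources used here. It is 4 for all aged sham libraries and for aged bleo 4, 5 for aged bleo 1 to 3, and 6 for aged bleo 5. Within the ending 4, aged bleo 4 stood alone against the 4 aged sham libraries, at 0.0708 times the aged sham mean for *Gsn*, 0.127 for *Inmt*, 0.310 for *Ces1d*, 0.395 for *Slc7a10*, 0.518 for *Mamdc2*, 0.638 for *Limch1*, 1.11 for *Npnt*, and 1.37 for *Scube2*. With the ending as a further term, the estimate rests on that library. The log2 fold changes were then -3.82 for *Gsn*, -2.98 for *Inmt*, -1.69 for *Ces1d*, -1.34 for *Slc7a10*, and -0.95 for *Mamdc2*. *Limch1* was at -0.65, and the calls of *Npnt* (0.15) and *Scube2* (0.45) were lost. The endings 5 and 6 hold aged bleo libraries only, so for these the ending and the treatment cannot be told apart.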

How the data were processed

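RNA-Seq was analysed for 9 libraries of sorted Col1a1-GFP lung fibroblasts, 4 of the aged sham and 5 of the aged bleo group, as many as the labels give lungs. The authors deposited 1 table of 43346 genes with whole-number read counts per gene, without normalization, and FPKM values, in which the authors divided by gene length. The FPKM are the authors' own scaling, and the depth implied by them is 2.27 to 2.42 times the summed counts. The submitters' processing notes name bcl2fastq, STAR 2.5.2b, featureCounts of Subread, and mm10 and GRCm38. The build was taken as GRCm38, since 78.8% of the identifiers shared with GENCODE M21 have the same start and end. The library kit does not mark strand.

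Groups follow the condition named in the labels. Genes whose counts averaged 25 or more were tested with edgeR 4.0.16 in R 4.3.3 (TMM, glmQLFit, glmQLFTest, no covariate) and called at an FDR below 0.10 with a fold change above 1.5. SEs came from the fold change and its F statistic, and log2 CPM values used a prior count of 2. The 8 genes and the gene lists were chosen with earlier results of these data known. All 8 genes were named, as were all tested relatives, the 2 genes at each end of the other lists, and the 5 genes with the nearest mean profile among those of at least 10 CPM, except for results that are not reported here. Alternatives were RLE, upper quartile, and library size scaling, DESeq2 1.42.0, limma 3.58.1 on log2 CPM, log2(FPKM + 0.1), and log2(FPKM + 1), other filters and thresholds, a robust fit, each library left out, the replicate block, and the name ending. The fits were tested on simulated counts. No pair of libraries was a duplicate, since chi-square per degree of freedom within a group was 28.7 to 412.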

Additional observations from a re-analysis of the deposited data

Results flagged for a closer look

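None of the 8 identity genes had a library that stood apart from its group by Dixon's test. Among the 154 groups of libraries looked at (77 genes in both conditions), 16 had such a library, or 10.4%, where chance alone gives about 5%, and genes of 1 library are not independent. In aged bleo 4, the leukocyte and macrophage genes *Ptprc* (183 CPM, next library 43.6), *Laptm5* (141 CPM, next 53.9), *Fcer1g* (37.3 CPM, next 13.1), and *Chil3* (179 CPM, next 84.5) were far above the other aged bleo libraries. In the same library, the transporter genes *Slc7a11* (44.1 CPM, next 15.2) and *Slc3a2* (136 CPM, next 116) were also high, and *Nnmt* was low (10.4 CPM, next 14.8). In aged bleo 5, *Scgb1a1* (7.96 CPM, next 1.28), *Higd1b* (4.10 CPM, next 1.85), and *Slc7a6* (80.5 CPM, next 66.5) were high.

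Aged sham 2, the highest aged sham library for all 8 identity genes, also stood apart as high in *Cxcl14* (53.7 CPM, next 30.6), *Mamdc4* (23.5 CPM, next 19.96), *Ablim3* (88.1 CPM, next 66.6), and *Tmem204* (85.7 CPM, next 73.8), and as low in *Scn7a* (422 CPM, next 457) and *Ptch1* (126 CPM, next 148). Of these genes, *Ablim3* and *Tmem204* were chosen for their likeness to the mean profile of the 8 genes, so their high value in that library comes with the choice.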

How the results depend on the processing

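*Gsn* and *Inmt* were lower and past the thresholds under all 15 alternatives and with each of the 9 libraries left out, with log2 fold changes of -3.82 to -1.86 and -2.98 to -1.67 over the alternatives and of -2.53 to -1.87 and -2.20 to -1.61 with 1 library left out. *Scube2* lost its call only with the name ending as a further term, and *Npnt* and *Ces1d* lost theirs as given in the report and under an FDR under 0.05 with a fold change over 2. The number of identity genes lower was 2 to 4 and higher 1 to 2 with 1 library left out, 5 and 0 with the name ending, and 2 and 1 under the stricter thresholds. The cause was not tested, and the counts of all genes under these settings, which moved as well, are given in the next paragraph. *Mamdc2* had no stable sign, with -0.0032 under RLE, -0.00042 with library size only, -0.0017 with the upper quartile, -0.0031 under DESeq2, -0.049 under limma-trend, -0.012 and -0.010 on log2(FPKM + 0.1) and log2(FPKM + 1), -0.17 to 0.23 with 1 library left out, and -0.95 with the name ending, where *Limch1* was at -0.65.

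All genes past the thresholds numbered 4022 (2082 higher, 1940 lower) and 3525 to 4597 with 1 library left out (1876 to 2314 higher, 1639 to 2283 lower), 1785 (960 and 825) on log2(FPKM + 1), 6394 (3153 and 3241) with the name ending, 2158 (1224 and 934) under the stricter thresholds, and 7553 (3944 and 3609) with no minimum fold. The replicate numbers did not pair the libraries, as the correlations of same-numbered deviations were 0.09, 0.06, -0.13, and 0.33 for numbers 1 to 4 and not every library correlated best with its own number. With the replicate block (8 libraries), 3541 genes passed, 3 of the 8 genes were lower and 2 higher, and no call of the 8 changed, with *Npnt* at 0.96 (FDR 0.0127).

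Counts in other lists moved as follows. *Acta2* was 1 lower fibrotic gene under RLE, DESeq2, no minimum fold, and without aged bleo 4 and aged sham 4 together, a choice made after seeing the data, where *Pecam1* and *Ptprc* were 1 lower endothelial and 1 lower leukocyte gene. With 1 library left out, the lower genes were 0 to 1 fibrotic (*Acta2* without aged sham 1 or 4 or aged bleo 1, 2, or 5), 0 to 1 endothelial and 0 to 2 leukocyte (*Pecam1*, *Ptprc*, and *Coro1a* without aged bleo 4), and 1 to 3 pericyte and smooth muscle genes (*Cnn1* alone without aged sham 3). On log2(FPKM + 1), 1 gelsolin relative was lower and 0 *Ces1* genes were higher, as with at least 10 counts in every library. Under the stricter thresholds 1 pericyte and 1 Hedgehog gene were lower, and 0 *Npnt* relatives and 1 *Slc7a10* relative were higher. With no minimum fold, 2 Hedgehog genes and 4 *Slc7a10* relatives were higher. The block gave 2 lower epithelial genes. The name ending gave 3 lower fibroblast-defining, 1 mesothelial, 8 other alveolar, 3 peribronchial, 5 Hedgehog, and 1 *Npnt* relative genes.

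Signs of genes that did not pass also reversed. *Cdh5* was at 0.042, 0.031, and 0.0033 under limma-trend, log2(FPKM + 0.1), and log2(FPKM + 1), and at 0.18 and 0.37 with the block and the name ending. *Scgb1a1* was at -0.23, -0.17, -0.0014, -0.90, and -0.39 under the same settings. *Slc7a11* was at -0.034 under limma-trend and -0.035 without aged bleo 4 and aged sham 4, where *Capg* was at -0.073. With 1 library left out, the ranges were -0.27 to 0.16 for *Cdh5*, -0.95 to 0.79 for *Scgb1a1*, -0.65 to 0.65 for *Slc7a11*, -0.92 to 0.012 for *Wt1*, -1.30 to 0.12 for *Ptprc*, -0.082 to 0.063 for *Capg*, and -0.10 to 0.98 for *Fcer1g*. With the name ending, *Ptprc* was at 1.08, *Pecam1* at 0.061, *Lrrn4* at -0.14, *Hhip* at -0.58, *Lgr5* at -0.13, *Nnmt* at -0.30, *Pnmt* at -0.14, and *Smo* at -0.086. Depth did not limit the 8 genes, whose smallest count was 303, and the number of libraries sets the precision.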
